A study of Mus musculus with 6 samples.

Results

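Nucleoporins are the proteins that build the nuclear pore, and 29 of the 55401 genes in the deposited table encode members of this group. They were chosen by gene symbol: Nup followed by a number and at most 1 letter, plus Tpr, Ranbp2, Rae1, Ndc1, Pom121, Seh1l, Sec13, Aaas and Ahctf1. The group was also selected on knockout against WT values of these same counts, which were in view when it was proposed, so its genotype differences are a description and support nothing about the pore as a whole. The libraries come from mouse bone marrow stromal/stem cells kept in culture, 3 from Nrf2 knockout cells and 3 from WT cells. Nrf2 is the transcription factor encoded by Nfe2l2 that drives antioxidant and detoxifying genes. Both genotypes grew in DMEM with 10% fetal bovine serum and antibiotics, and no label gives strain, age, how the knockout was made, or whether libraries of a genotype come from separate animals or cultures. The names of the knockout columns share a middle 1 that nothing explains. Any p-value therefore measures library-to-library spread alone, and that spread may be technical.

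The pore is a ring-shaped channel through the nuclear envelope, and the roles given below are known mainly from human, mouse and frog cells. Outer rings made of Y-shaped complexes and an inner ring form its scaffold, a membrane ring anchors it, and filaments on the cytoplasmic face and a basket on the nuclear face receive cargo. Nucleoporins rich in phenylalanine-glycine repeats fill the channel and bind transport receptors. The group divides here into 9 genes of the Y complex, 5 of the inner ring, 5 of the membrane ring, 2 of the central channel, 5 of the cytoplasmic side and 3 of the nuclear basket. Nup98 was placed on the cytoplasmic side, but the same gene also encodes the Y complex protein Nup96, and its counts do not separate them.

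Sequence upstream of 4 of these genes is shown because the values below turn on them. Nup133 and Nup50 were higher in knockout libraries, Nup62 was the 1 gene called lower, and Nup37 starts close to a neighbour that was higher too. Each runs 5′ to 3′ on the gene's strand from 250 bases before to 50 bases after the RefSeq start site (GRCm38.p6), and capitals mark matches to any of the motifs spelled out after the sequences. Nup133 was read from chr8:123949216-123949515 on the minus strand, Nup50 from chr15:84923178-84923477 on the plus strand, Nup62 from chr7:44815838-44816137 on the plus strand and Nup37 from chr10:88146742-88147041 on the plus strand.
Nup133: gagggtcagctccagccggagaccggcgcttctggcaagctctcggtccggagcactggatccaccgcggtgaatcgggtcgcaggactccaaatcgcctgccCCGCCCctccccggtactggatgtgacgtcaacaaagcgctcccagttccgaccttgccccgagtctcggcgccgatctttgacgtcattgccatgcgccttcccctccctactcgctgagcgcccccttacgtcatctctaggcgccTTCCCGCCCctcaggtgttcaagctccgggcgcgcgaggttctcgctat
Nup50: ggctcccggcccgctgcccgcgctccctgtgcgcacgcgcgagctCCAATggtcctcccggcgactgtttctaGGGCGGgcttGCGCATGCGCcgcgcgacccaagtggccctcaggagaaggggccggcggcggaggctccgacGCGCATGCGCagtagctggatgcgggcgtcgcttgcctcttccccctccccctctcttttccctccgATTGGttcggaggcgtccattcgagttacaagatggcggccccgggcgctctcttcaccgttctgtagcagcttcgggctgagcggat
Nup62: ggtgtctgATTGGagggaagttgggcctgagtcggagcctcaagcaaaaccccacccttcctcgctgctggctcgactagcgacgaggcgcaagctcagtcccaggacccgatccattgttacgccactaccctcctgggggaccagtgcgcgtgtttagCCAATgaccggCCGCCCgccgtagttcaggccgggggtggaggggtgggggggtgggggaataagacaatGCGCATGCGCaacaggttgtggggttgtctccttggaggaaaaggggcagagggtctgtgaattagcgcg
Nup37: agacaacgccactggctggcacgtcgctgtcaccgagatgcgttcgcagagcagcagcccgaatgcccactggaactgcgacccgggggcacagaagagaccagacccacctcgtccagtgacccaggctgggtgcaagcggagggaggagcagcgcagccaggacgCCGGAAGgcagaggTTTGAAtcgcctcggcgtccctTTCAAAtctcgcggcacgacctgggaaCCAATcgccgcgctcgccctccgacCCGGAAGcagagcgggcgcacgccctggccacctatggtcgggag

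RefSeq promoters were matched for 24 of the 29 genes. They were rich in GC, with a median of 63.8% and a range of 45.3% to 74.0%, against a median of 61% over promoters of 9889 tested genes and 52.7% over all 27025 promoters in the table. Both strands were searched for 8 motifs. A CCAAT box (CCAAT) was present in 9 of 24 nucleoporin promoters (37.5%), against 37.9% of all promoters and 39.0% of those of tested genes. A GC box (GGGCGG) was in 16 of 24 (66.7%), against 36.0% of all promoters but 65.1% of those of tested genes. An ETS core (CCGGAAG) was in 7 (29.2%), against 9.15% and 19.0%. An E2F core (GCGGGAA), which can overlap a GC box as in the Nup133 window, was in 3 (12.5%), against 4.69% and 8.59%.

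A core of the motif of nuclear respiratory factor 1 (GCGCATGC), a factor unrelated to Nrf2 despite its short name NRF1, was in 3 promoters (12.5%), against 2.8% of all promoters and 5.53% of those of tested genes. The Nup50 window holds it in 2 separate palindromes and the Nup62 window in 1. A CHR element (TTTGAA), known from cell cycle genes, was in 6 (25.0%), against 18.1% of all promoters and 12% of those of tested genes. The core of the antioxidant response element, the motif NRF2 binds (TGACNNNGC), was in 3 (12.5%), against 12.4% and 14.9%. A TATA box (TATAAA) was in 2 (8.33%), against 14.2% and 7.0%. These matches describe letters in a window and not binding.

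Libraries held 20069243 to 21235480 counts in Nrf2 knockout and 18381114 to 21323839 in WT. Nfe2l2 had 118, 149 and 118 counts in knockout libraries, against 3591, 3082 and 3628 in WT libraries, so the labels match it in 6 of 6 libraries. The labelled cell type was not matched in the knockout libraries: 12 stromal markers such as Col1a1 and Pdgfrb summed to 305.0, 337.5 and 322.0 CPM (a count as a share of the library total, times 1000000, scaled with TMM factors) there and to 5089, 13990 and 20390 CPM in WT replicates 1, 2 and 3. Thy1, one of them, had 0, 1 and 1 counts in knockout libraries, against 48, 154 and 285 in WT libraries. The 12 macrophage markers summed to 17000 to 18750 CPM in knockout libraries and 17120 to 21820 CPM in WT libraries, most of it Lyz2. Of the 11 tested 4 were called higher, where 14.1% of all tested genes were. Log2 fold changes were positive for 8 and negative for 3 of them, with a median of 0.46. The WT libraries were thus mixed too. In WT replicates 1 and 2 the macrophage sum, 21820 and 18430 CPM, was above the stromal sum, and in WT replicate 3, at 17120 CPM, below it. Since Lyz2 makes up most of the macrophage sum, these sums do not rank the cell types within a library. The 5 tested neutrophil markers, Ngp, Elane, S100a8, S100a9 and Mpo, were called higher, while the mast cell markers Cpa3 and Kit, at up to 10 counts, were not tested. These 7 genes had sums of 231.1, 262.7 and 234.1 CPM in knockout libraries, against 37.6, 15.2 and 80.0 CPM in WT libraries. Of 4 tested endothelial markers 2, Kdr and Vwf, were called higher. Pecam1 and Cdh5 did not pass, at log2 fold changes of 0.54 and -0.72. Emcn and Tek had too few counts to be tested. Emcn had 0, 2 and 0 counts in knockout libraries, against 9, 7 and 7 in WT libraries. No lymphocyte or erythroid marker had enough counts to be tested. Markers of dividing cells moved with genotype, with 19 of 21 called higher (median log2 fold change 0.83). Their sum was 3142, 3010 and 3184 CPM in knockout libraries, against 1714, 1966 and 1657 CPM in WT libraries. Pcna alone gave 649.1, 544.0 and 357.4 CPM of the sums in WT replicates 1, 2 and 3. Gene by gene, WT replicate 3 was above WT replicate 1 for 17 of the 21 markers, with a median log2 difference of 0.5. The part of cell type make-up and cell division in any difference given below was not tested, and in bulk RNA fewer cells of a type and less RNA per cell cannot be told apart.

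All 29 genes passed the filter on low counts. In knockout libraries 10 of 29 were called higher by edgeR (34.5%, where 14.1% of the 13184 tested genes were called higher) and 1 was called lower (3.45%, where 18.7% were). A call is an adjusted p under 0.05 over all tested genes. The median log2 fold change, knockout over WT, was 0.24 for the 29 genes and -0.01 for all tested genes. Differences were small: 3 of 29 genes lay beyond 1.5-fold in either direction, against 28.2% of all tested genes. Since the contrast was known when the group was proposed, nothing is read from these counts. The number called higher fell to 4, 6 and 5 without knockout replicates 1, 2 and 3, and the number called lower was 0 without knockout replicate 1 or 2 (2 lower at an unadjusted p under 0.05 in edgeR each time). Without WT replicate 1 it was 11 higher and 4 lower.

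The 2 genotypes did not overlap for 16 genes with all knockout libraries higher and for 3 genes with all knockout libraries lower. Over all tested genes these shares were 24.9% and 25.9%. All 11 called genes were among them, together with 6 uncalled genes that were higher (Nup107, Nup85, Nup205, Nup93, Aaas and Nup54) and 2 that were lower (Nup88 and Nup210l). Summed over the 29 genes, transcripts made up 1733, 1596 and 1760 CPM in knockout libraries, against 1454, 1575 and 1639 CPM in WT libraries, so the sums overlapped.

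**Figure D1:**
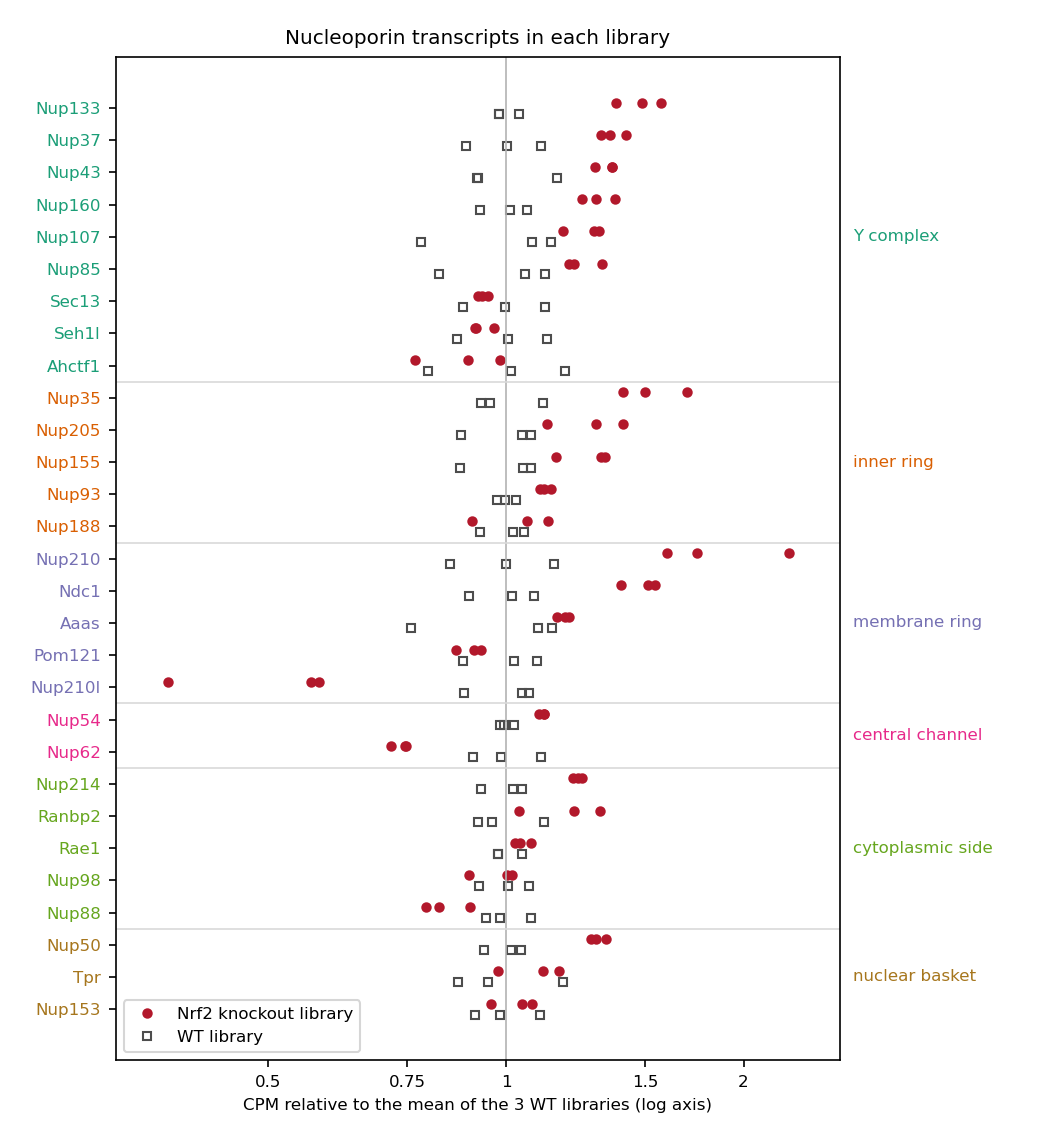
CPM of each nucleoporin gene in each library relative to the mean of the 3 WT libraries (log axis), grouped by subcomplex; filled circles are Nrf2 knockout libraries and open squares WT libraries. For 16 genes every circle lies right of every square and for 3, Nup62, Nup88 and Nup210l, every circle lies left.

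Beside each subcomplex count given from here on stand the shares over all tested genes, 14.1% called higher and 18.7% called lower. Differences between subcomplexes were not tested, and with so few genes in each no pattern is read from the counts. The Y complex held 4 of the 10 genes called higher, out of 9, with a median log2 fold change of 0.33. Nup133, a stem subunit that contacts the membrane, lies at chr8:123897123-123949265 on the minus strand (mm10; ENSMUSG00000039509). It had 1180, 1063 and 1105 counts in knockout libraries, against 667, 732 and 835 in WT libraries. The libraries of the genotypes did not overlap, and after scaling the WT libraries lay within 36.5 to 38.8 CPM. It rose 1.48-fold, to 55.1 ± 3.55 CPM in knockout, against 37.3 ± 1.30 CPM in WT (SD, n = 3 each; log2 fold change 0.56, SE 0.08; edgeR adjusted p = 0.0027).

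Nup160, the arm subunit that Nup37 binds, had 929, 864 and 867 counts in knockout libraries, against 618, 672 and 708 in WT libraries. Every knockout library was above every WT library, and it rose 1.31-fold (log2 fold change 0.39, SE 0.09; edgeR adjusted p = 0.014). That call was lost in 3 of 18 alternatives. Nup37 and Nup43, WD-repeat proteins on the arms, were called at 1.36-fold and 1.34-fold (edgeR adjusted p = 0.025 and 0.045). Both calls were weak. Nup37 lost its call in 9 and Nup43 in 13 of the 18 alternatives, with adjusted p up to 0.093 and 0.13.

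Nup107, the partner of Nup133, had 889, 832 and 891 counts in knockout libraries, against 486, 735 and 841 in WT libraries. Nup85, an arm subunit, had 1053, 995 and 944 counts in knockout libraries, against 592, 786 and 1011 in WT libraries. In both, WT replicate 1 was the lowest library, at 26.6 CPM for Nup107 and 32.4 CPM for Nup85. Neither passed, with log2 fold changes of 0.33 (SE 0.15; edgeR adjusted p = 0.13) and 0.32 (SE 0.12; edgeR adjusted p = 0.092). Without WT replicate 1 these were 0.19 and 0.21. Without WT replicate 3 Nup85 was called at 0.41 (edgeR adjusted p = 0.045, over a range of 0.045 to 0.25 in its alternatives).

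The 3 remaining Y complex genes had negative values and did not pass. Sec13 and Seh1l also belong to GATOR2, a regulator of mTORC1, and Sec13 forms the outer COPII coat of secretory vesicles. Sec13 had 127.8 ± 1.87 CPM in knockout and 136.8 ± 16.4 CPM in WT (SD, n = 3 each; log2 fold change -0.10; edgeR adjusted p = 0.48). Seh1l had 34.9 ± 1.07 CPM in knockout and 37.5 ± 4.83 CPM in WT (SD, n = 3 each; log2 fold change -0.10; edgeR adjusted p = 0.50). Ahctf1, or ELYS, which brings the Y complex to chromatin after mitosis, had 973, 855 and 1057 counts in knockout libraries, against 783, 1034 and 1464 in WT libraries, with a log2 fold change of -0.18 (edgeR adjusted p = 0.42). Leaving out WT replicate 1 made it a call at -0.31 (edgeR adjusted p = 0.042), the lowest adjusted p of its 18 alternatives, which ranged up to 0.86.

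Partners of Sec13 in its other roles were looked at beside it. In the COPII coat 4 of 10 genes fell, among them Sec24d and Sar1a, and the other 6 did not pass (median log2 fold change -0.17). Over all tested genes 18.7% were called lower. Sec31a, which pairs with Sec13 in that coat, was at 112.5 ± 1.90 CPM in knockout and 185.5 ± 43.5 CPM in WT (SD, n = 3 each; log2 fold change -0.72; edgeR adjusted p = 0.016). The GATOR2 genes Mios, Wdr24 and Wdr59 had log2 fold changes of -0.25, 0.11 and 0.02 and did not pass (edgeR adjusted p = 0.15, 0.29 and 0.89).

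Inner ring genes all had positive values, with 2 of 5 called higher and a median log2 fold change of 0.34. Nup35, a membrane-binding subunit also called Nup53, had 178, 206 and 165 counts in knockout libraries, against 100, 106 and 150 in WT libraries. It rose 1.53-fold (log2 fold change 0.61, SE 0.15; edgeR adjusted p = 0.020), and lost its call in 4 of 18 alternatives. Its level was low, at 2.63 ± 0.23 FPKM in knockout and 1.78 ± 0.28 FPKM in WT (SD, n = 3 each).

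Nup155, a scaffold subunit, had 1041, 936 and 1043 counts in knockout libraries, against 625, 778 and 962 in WT libraries. Its log2 fold change of 0.34 stood just inside the threshold (edgeR adjusted p = 0.047) and was lost in 12 of 18 alternatives. The large scaffold subunit Nup205 stood just outside it at 0.35 (edgeR adjusted p = 0.055), and 5 alternatives called it. Nup188, its paralog, was at 72.1 ± 8.08 CPM in knockout and 69.8 ± 4.58 CPM in WT (SD, n = 3 each), and its libraries overlapped. Nup93, which links the inner ring to the channel, had 54.5 ± 0.91 CPM in knockout and 48.6 ± 1.32 CPM in WT (SD, n = 3 each), with no overlap but no call (log2 fold change 0.16; edgeR adjusted p = 0.090).

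The membrane ring showed the widest range, from -0.97 to 0.91. Ndc1, a transmembrane protein that anchors the scaffold, lies at chr4:107367784-107416346 on the plus strand (mm10; ENSMUSG00000028614). It had 1290, 1197 and 1247 counts in knockout libraries, against 679, 847 and 962 in WT libraries, with no overlap. It rose 1.49-fold (log2 fold change 0.57, SE 0.09; edgeR adjusted p = 0.0045) and kept its call in all 18 alternatives.

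Nup210, or gp210, a transmembrane protein required for muscle and neural differentiation of mouse cells, had 334, 313 and 432 counts in knockout libraries, against 173, 206 and 184 in WT libraries. Every knockout library was above every WT library, and knockout replicate 3 was the highest. It rose 1.88-fold, the most of the group (log2 fold change 0.91, SE 0.18; edgeR adjusted p = 0.0094), and its call held in all 18 alternatives. At 1.67 ± 0.34 FPKM in knockout and 0.92 ± 0.13 FPKM in WT (SD, n = 3 each) its level was low, so on the log2(FPKM + 1) scale in limma the difference shrank to 0.47.

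Nup210l, its paralog known from the mouse testis, had 11, 11 and 7 counts in knockout libraries, against 18, 19 and 19 in WT libraries. Its log2 fold change of -0.97 (SE 0.32) did not pass (edgeR adjusted p = 0.059), and at 0.12 FPKM over the 6 libraries its level was the lowest of the group. Aaas, the triple A syndrome protein that Ndc1 holds at the pore, had 724, 733 and 691 counts in knockout libraries, against 413, 644 and 750 in WT libraries. WT replicate 1 was again the lowest, at 22.6 CPM against 34.1 and 32.8 CPM in WT replicates 2 and 3, and the gene did not pass (log2 fold change 0.24; edgeR adjusted p = 0.27). Without that library the log2 fold change was 0.09. Pom121, which acts early in pore assembly, was at 48.9 ± 1.81 CPM in knockout and 54.2 ± 5.82 CPM in WT (SD, n = 3 each; log2 fold change -0.15; edgeR adjusted p = 0.26). Without WT replicate 1 it was called at -0.22 (edgeR adjusted p = 0.041, over a range of 0.041 to 0.79 in its alternatives). It shares 11.9% of its exonic bases with Nsun5 on the opposite strand, and without known strand use the reads of both cannot be told apart.

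**Figure D2:**
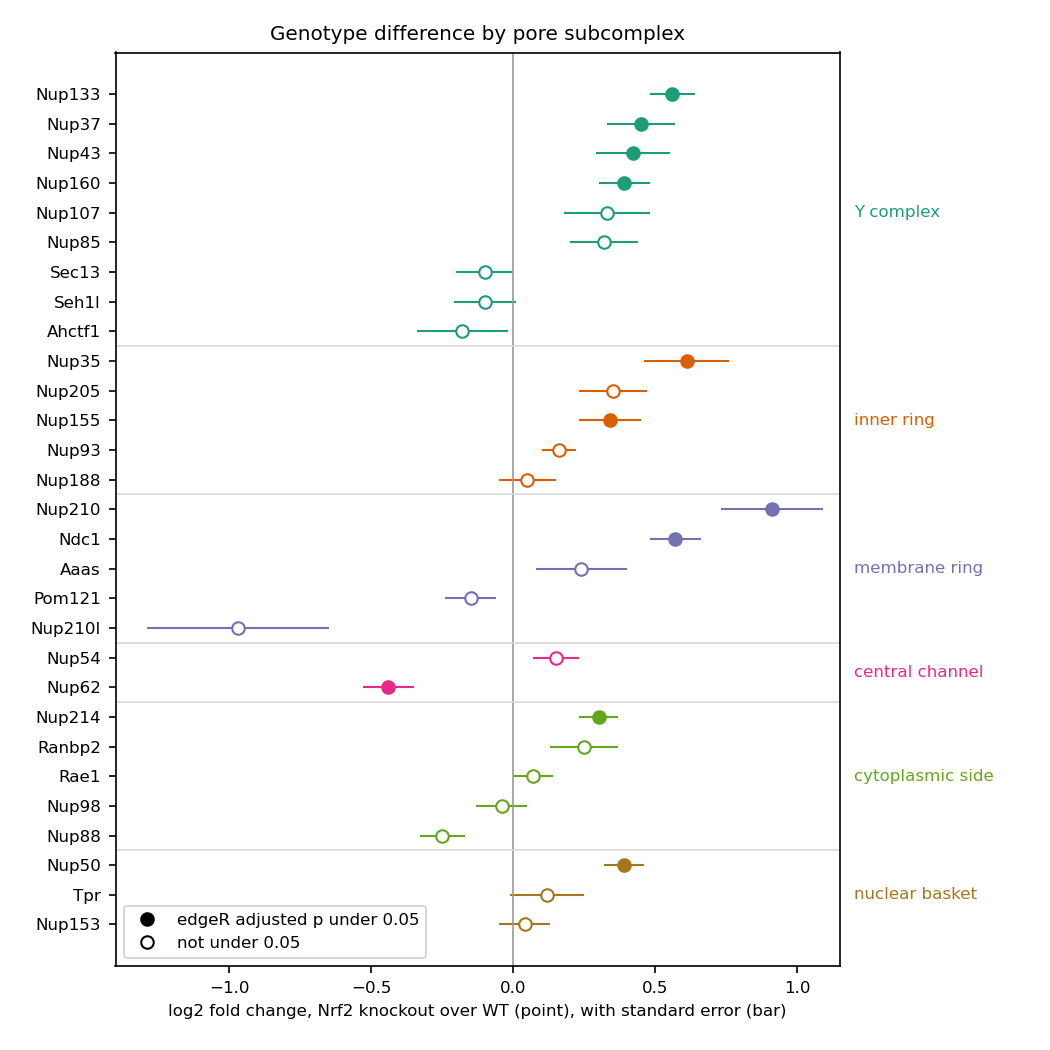
Log2 fold change of each nucleoporin gene, Nrf2 knockout over WT, from edgeR (points) with its standard error (bars), ordered by subcomplex; filled points have an adjusted p under 0.05. The 10 genes called higher lie between 0.30 and 0.91, and Nup62 at -0.44 is the filled point below 0.

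The central channel held the 1 gene called lower, among 8 of the 29 with a negative log2 fold change. Nup62, whose repeats line the channel, lies at chr7:44816088-44830812 on the plus strand (mm10; ENSMUSG00000109511). It had 1896, 1869 and 1882 counts in knockout libraries, against 2553, 2349 and 2625 in WT libraries, so all knockout libraries were lower. It fell to 93.0 ± 2.19 CPM in knockout, against 126.4 ± 12.6 CPM in WT (SD, n = 3 each; log2 fold change -0.44, SE 0.09; edgeR adjusted p = 0.010). The call was lost in 3 of 18 alternatives, at adjusted p up to 0.051. Nup54, its channel partner, was at 23.6 ± 0.22 CPM in knockout and 21.2 ± 0.43 CPM in WT (SD, n = 3 each) without overlap, but did not pass (log2 fold change 0.15; edgeR adjusted p = 0.16).

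The 5′ end of Nup62 overlaps Atf5, a stress-response transcription factor gene on the opposite strand whose annotated start lies 570 bases inside Nup62. They share 82 exonic bases in GENCODE M21, 2.87% of those of Nup62, and Il4i1 on the same strand, with 97 shared bases, had at most 3 counts in a library. Atf5 had 500, 504 and 423 counts in knockout libraries, against 1629, 3029 and 4032 in WT libraries, and it fell by 2.60 on the log2 scale (SE 0.26; edgeR adjusted p = 0.0011). Whether reads in the shared bases bear on the Nup62 difference was not tested. Within WT the genes ran in opposite order. Nup62 stood at 139.8, 124.5 and 114.9 CPM in replicates 1, 2 and 3, while Atf5 counts rose over the same replicates.

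In another neighbour pair both genes were higher in knockout libraries. The start of Parpbp, a gene for an inhibitor of homologous recombination, lies 51 bases upstream of Nup37 on the opposite strand. Parpbp had 214, 211 and 235 counts in knockout libraries, against 63, 121 and 148 in WT libraries (log2 fold change 0.99; edgeR adjusted p = 0.022). Nup37 had 294, 294 and 305 counts in knockout libraries, against 175, 225 and 247 in WT libraries. Both genes were lowest in WT replicate 1, which was the lowest WT library for 45.3% of all tested genes. In all, 7 of the 29 genes had a tested gene starting within 1000 bases on the opposite strand, and Atf5 and Parpbp were the 2 called neighbours. Over all tested genes 14.1% were called higher and 18.7% lower. The uncalled neighbours Gm45890, Rpain and Pgap2, at log2 fold changes of -0.43, 0.35 and 0.21, had the opposite sign to Nup133, Nup88 and Nup98. Dolk and Odr4, at 0.06 and 0.26, had the same sign as Nup188 and Tpr.

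**Figure D3:**
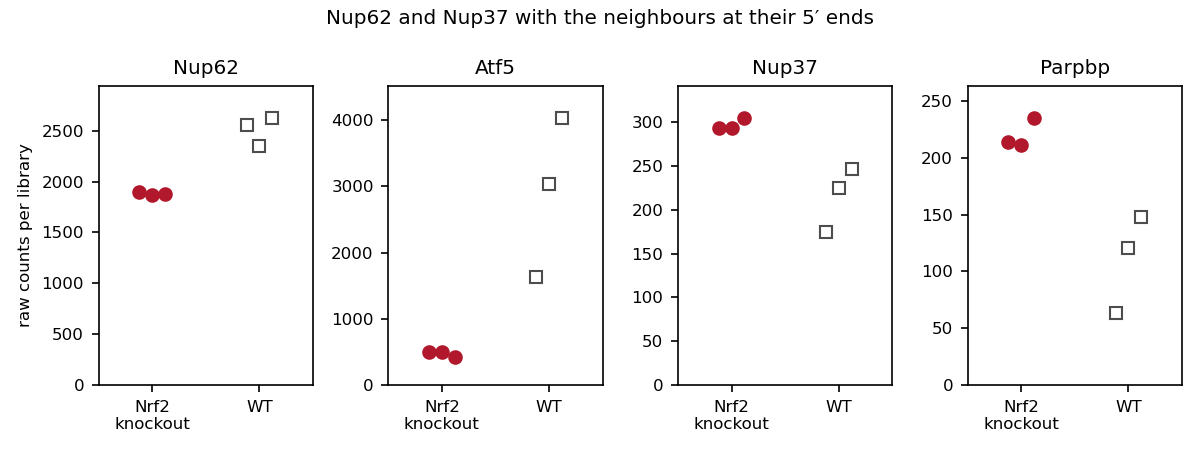
Raw counts per library (axes start at 0, a scale for each gene) for Nup62 and Atf5, and for Nup37 and Parpbp, in Nrf2 knockout (circles) and WT (squares). Nup62 and Atf5 are lower in all 3 knockout libraries, and Nup37 and Parpbp higher.

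The channel protein Nup58 and the export factor Nup42 appear in the table only as Nupl1 and Nupl2, symbols outside the group's definition. Nup62cl, a Nup62-like gene whose symbol the definition also leaves out, had 0 counts in each knockout library, against 1, 22 and 45 in WT libraries, and was not tested. Nupl1 had 1, 2 and 0 counts in knockout libraries and 0 in each WT library. It shares 48.8% of its exonic bases with Gm49336 on the same strand, which had 555, 646 and 586 counts in knockout libraries and 472, 642 and 781 in WT libraries. The Nupl1 row therefore cannot be read as the level of this transcript. Nupl2 was at 10.4 ± 1.00 CPM in knockout and 12.4 ± 0.33 CPM in WT (SD, n = 3 each; edgeR adjusted p = 0.14).

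Genes of the cytoplasmic side had values of both signs, from -0.25 to 0.30 with a median log2 fold change of 0.07, and 1 of 5 was called. Nup214, which docks export complexes, had 1447, 1460 and 1447 counts in knockout libraries, against 1083, 1150 and 1236 in WT libraries, with no overlap. It rose 1.23-fold (log2 fold change 0.30, SE 0.07; edgeR adjusted p = 0.018), a call lost in 4 of 18 alternatives. Its direct partner Nup88 had 1290, 1166 and 1167 counts in knockout libraries, against 1225, 1320 and 1747 in WT libraries. After scaling, all knockout libraries were lower for Nup88, at 59.7 ± 3.90 CPM, against 71.2 ± 4.80 CPM in WT (SD, n = 3 each). It stood just outside the threshold (log2 fold change -0.25, SE 0.08; edgeR adjusted p = 0.055), and 3 alternatives called it, among them leaving out WT replicate 1 (adjusted p = 0.018, over a range of 0.018 to 0.45).

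Ranbp2, the long filament protein that also acts as a SUMO ligase, had 2816, 2464 and 3008 counts in knockout libraries, against 1927, 2078 and 2926 in WT libraries, and did not pass (log2 fold change 0.25; edgeR adjusted p = 0.14). Nup98 was at 67.7 ± 4.59 CPM in knockout and 69.6 ± 5.01 CPM in WT, and Rae1, its partner in mRNA export, at 42.0 ± 1.00 CPM in knockout and 40.1 ± 1.67 CPM in WT (SD, n = 3 each). For both genes the libraries of the genotypes overlapped.

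In the nuclear basket 1 of 3 genes was called. Nup50, a mobile basket protein that helps release import cargo, lies at chr15:84923411-84942963 on the plus strand (mm10; ENSMUSG00000016619). It had 2249, 2208 and 2165 counts in knockout libraries, against 1548, 1647 and 1790 in WT libraries, with no overlap. It rose 1.31-fold, to 109.0 ± 2.38 CPM in knockout, against 83.5 ± 4.61 CPM in WT (SD, n = 3 each; log2 fold change 0.39, SE 0.07; edgeR adjusted p = 0.0074), and kept its call in all 18 alternatives. Tpr, the coiled coil that forms the basket's filaments, had 3073, 2762 and 3185 counts in knockout libraries, against 2370, 2246 and 3692 in WT libraries. WT replicate 3 was above every knockout library in counts and in CPM, and the gene did not pass (log2 fold change 0.12; edgeR adjusted p = 0.52). Nup153, which anchors the basket, was at 62.8 ± 3.89 CPM in knockout and 61.1 ± 5.94 CPM in WT (SD, n = 3 each; edgeR adjusted p = 0.78).

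Levels per length, on the deposited FPKM scale, ran from 0.12 to 41.7 FPKM. Sec13 averaged 41.7 FPKM over the 6 libraries, Nup62 38.4, Nup50 19.6 and Rae1 16.1 FPKM. In knockout libraries Sec13 at 39.4 ± 0.91 FPKM stood above Nup62 at 32 ± 1.05 FPKM, while in WT libraries they lay at 43.9 ± 7.77 and 44.9 ± 1.78 FPKM and did not differ beyond their spread (SD, n = 3 each). The other 25 genes lay at or below the 13.6 FPKM of Tpr. At the low end stood Nup35 at 2.21, Nup210 at 1.30 and Nup210l at 0.12 FPKM.

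**Figure D4:**
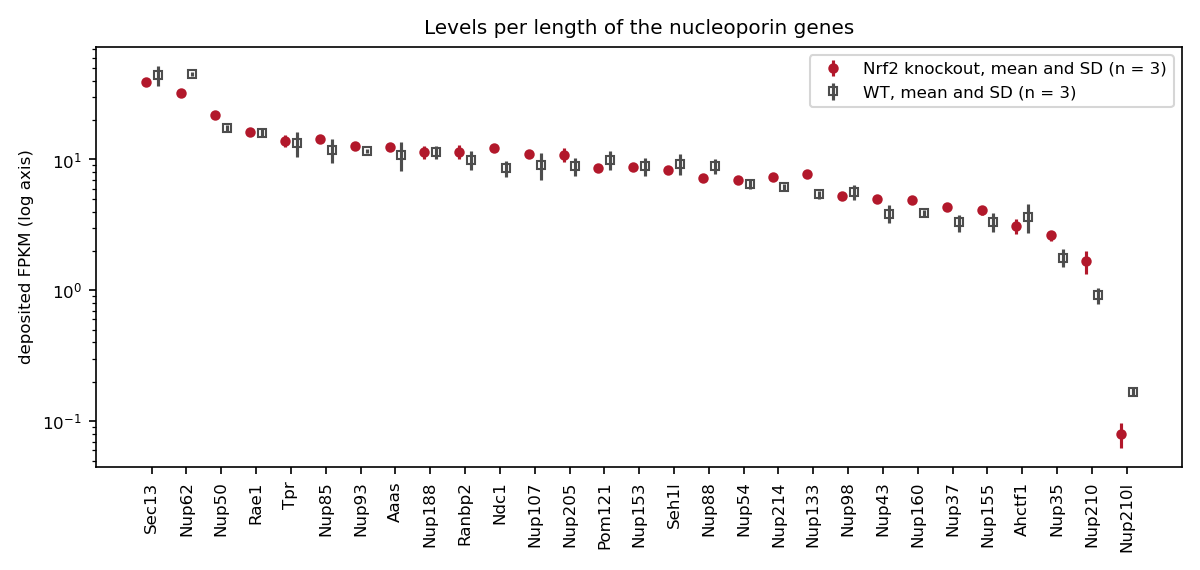
Deposited FPKM (log axis) of the 29 nucleoporin genes, mean and SD of 3 libraries for Nrf2 knockout (circles) and WT (squares), ordered by the mean over all 6 libraries. Sec13 at 41.7 FPKM and Nup62 at 38.4 FPKM stand above the rest, and Nup210l at 0.12 FPKM far below.

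Spread differed by genotype. The coefficient of variation of CPM was larger in WT than in knockout for 23 of 29 genes, with a median of 5.31% in knockout and 10.2% in WT, against 7.64% in knockout and 13.9% in WT over all tested genes. WT replicate 1 was the lowest WT library for 20 of 29 genes (45.3% of tested genes), WT replicate 3 for 8 (37.3%) and WT replicate 2 for 1 (17.4%). The same library, WT replicate 1, had the lowest summed stromal markers and the highest summed macrophage markers of the WT libraries. It was also below WT replicate 3 for 17 of the 21 markers of dividing cells, as it was for 19 of the 29 group genes. Whether make-up or cell division bears on the order of the WT libraries was not tested.

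Genes that work with the pore were looked at by class, and differences between classes were not tested. Over all tested genes 14.1% were called higher and 18.7% lower, the shares to set beside the counts of each class. Of 16 tested importins 2 rose and 4 fell (median log2 fold change -0.07). Ipo5, which imports ribosomal proteins and histones, was at 425.4 ± 9.33 CPM in knockout and 291.1 ± 2.87 CPM in WT (SD, n = 3 each; edgeR adjusted p = 0.0025). Ipo13 and Kpna4 fell 1.64-fold and 1.38-fold (edgeR adjusted p = 0.0014 and 0.0040). Among 7 exportins 1 fell and 6 did not pass. The 1 that fell was the tRNA exporter Xpot, at a log2 fold change of -0.41 (edgeR adjusted p = 0.033). Of 6 tested Ran cycle genes 1 rose: Rangap1, the GTPase activator that sits on Ranbp2, at 1.47-fold (edgeR adjusted p = 0.0040). Nutf2 went the other way and stood at the threshold without a call (log2 fold change -0.75, SE 0.24; edgeR adjusted p = 0.05). Its level was low, at 2.68 CPM in knockout and 4.50 CPM in WT, without overlap.

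Of 17 mRNA export genes 2 rose, the Nxf1 cofactor Nxt2 at 1.95-fold and the adaptor Alyref at 1.45-fold (edgeR adjusted p = 0.00093 and 0.0062). Genes of the SUMO pathway rose in 2 and fell in 1 of 6 cases, with Senp2, a protease found at the basket, at 1.31-fold (edgeR adjusted p = 0.0087). Among 3 tested pore genes under other symbols 1 fell, Tmem33, at a log2 fold change of -0.26 (edgeR adjusted p = 0.025).

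Lamina and nuclear envelope genes had 6 of 16 called higher, and the other 10 did not pass (median log2 fold change 0.32). Tmpo, which encodes lamina-associated polypeptide 2, was at 172.2 ± 6.19 CPM in knockout and 84.3 ± 10.2 CPM in WT, and Lmnb2, lamin B2, at 67.1 ± 2.22 CPM in knockout and 37.9 ± 2.35 CPM in WT (SD, n = 3 each; edgeR adjusted p = 0.0011 and 0.00099). Sun2, an envelope linker, rose 1.51-fold (edgeR adjusted p = 0.0019). Lmna, lamin A/C, did not pass, at a log2 fold change of -0.02 (edgeR adjusted p = 0.84).

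**Figure D5:**
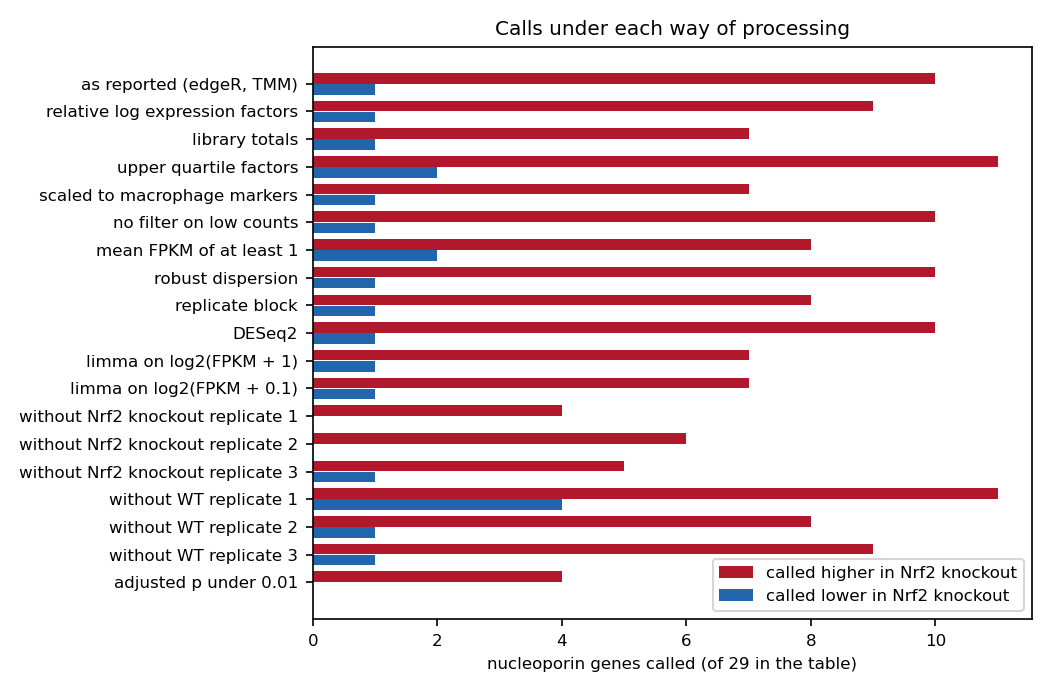
Number of nucleoporin genes called higher (red) and lower (blue) in Nrf2 knockout libraries under each way of processing; bars start at 0. The number called higher runs from 4 to 11 and the number called lower from 0 to 4, against 10 and 1 as reported.

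Ndc1, Nup133, Nup210 and Nup50 were called higher in every alternative run, and no called gene changed sign in any of them. In the plot of calls by processing, an adjusted p under 0.01 left 4 genes called higher, as did leaving out knockout replicate 1.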

How the data were processed

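The deposited table gives whole-number read counts per gene for each of 6 libraries, which the authors left unnormalized, per the file headers. It also gives FPKM, which the authors computed from the count, the table's exonic length and the column total. Recomputed values matched within 0.005. HISAT2 2.0.1, HTSeq 0.6.1, DESeq2 and mm10 are named in the submitters' processing notes. Neither strand use nor the handling of shared reads is given in the sources used here. All 29 gene spans equal those of GENCODE M21.

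In R 4.3.3, genes were tested by the quasi-likelihood test of edgeR 4.0.16, after filterByExpr at a minimum count of 10 and with TMM scaling. Genotype was the only term, and p-values were adjusted by Benjamini-Hochberg over 13184 genes. Standard errors were derived from the estimate and its F statistic. Libraries of a genotype differed beyond sampling noise, and more so in WT. Chi-square per degree of freedom was 3.24 to 8.26 between knockout libraries and 33.2 to 162 between WT libraries. Alternatives used DESeq2 1.42.0, limma 3.58.1, other scalings and filters, a replicate block and each library left out. Every group gene is accounted for; in each related list up to 3 genes with the smallest p are named, with Lmna, Col1a1, Thy1, Lyz2, S100a8, Mpo, Cpa3, Kit, Nup62cl, Nupl1, Il4i1, Atf5, Parpbp, Nsun5, Gm49336 and the GATOR2 genes chosen after their values were seen. Pcna, Cdh5, Emcn, Tek and the uncalled neighbours at 5′ ends were also named after their values were seen. Members, subcomplexes and lists were chosen with earlier results of these data known.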

Additional observations from a re-analysis of the deposited data

How the results depend on the processing

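The 18 alternatives gave a median log2 fold change of 0.18 to 0.31 for the group, against 0.24 as reported. Scaling to the summed macrophage markers put the median of all tested genes at 0.081. The number called higher was 4 at an adjusted p under 0.01 and 4 to 11 with 1 library left out. The number called lower was 2 with upper quartile factors, 2 at a mean FPKM of at least 1, 0 at an adjusted p under 0.01 (3 lower at an unadjusted p under 0.05 in edgeR, and 1 called by DESeq2), and 0 to 4 with 1 library left out. With the replicate number as a replicate block 8 were called higher and 1 lower. Same-numbered libraries correlated in their deviations at 0.203, 0.136 and 0.0778, and libraries with different numbers at -0.166 to 0.085. These values do not settle whether the numbers mark pairs. They were not taken as pairs because no label says so.

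Nup153 turned to -0.02 with library totals and to -0.01 with limma on log2(FPKM + 1) and on log2(FPKM + 0.1), and ranged from -0.01 to 0.11 with 1 library left out. Nup188 turned to -0.01 in the same 3 alternatives and ranged from -0.02 (without knockout replicate 3) to 0.14 with 1 library left out. Nup98 turned to 0.04 when scaled to macrophage markers, and ranged from -0.09 to 0.02 with 1 library left out, being positive without knockout replicate 2 (0.02) and without WT replicate 3 (0.01). None of the 3 was called anywhere, and the cause was not tested. Over all tested genes, calls ran from 875 higher and 1616 lower without knockout replicate 1 to 3188 and 3713 without WT replicate 1, against 1865 and 2468.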
